A study of Homo sapiens with 8 samples.

Results

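The genes described here are those whose response to a GATA6 short hairpin RNA (shRNA) could be set side by side in the human cell lines Caco-2 and HUG1N. A gene was represented by its brightest probe set over all 8 arrays, and it was kept if its log2 value exceeded 4 in both arrays of at least 1 group in each line. That left 6768 of the 11963 genes with a probe set of a single symbol. For each of them the quantity of interest was the difference of 2 differences, the change in HUG1N (shRNA minus control) minus the change in Caco-2 (shRNA minus control), called the interaction below. A positive interaction means that the log2 change was higher in HUG1N than in Caco-2. Changes with the same sign in both lines are called shared, and changes with opposite signs are called opposite. Genes close to the limit of log2 4 included GJB1, TSC22D4 and MATK, whose deciding arrays read 4.001, 4.006 and 4.011. CRADD, PCNX1 and NPTXR lay just outside, with deciding arrays at 3.985, 3.992 and 3.996.

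Messenger RNA was measured on Affymetrix 3′ expression arrays in 4 groups of 2 arrays. These were Caco-2 control, Caco-2 given GATA6 shRNA, HUG1N control and HUG1N given GATA6 shRNA. Caco-2 is an established line from a colorectal adenocarcinoma that takes on features of absorptive enterocytes, and HUG1N is an established gastric cancer line. Both were grown in media recommended by ATCC, and infected cells were selected with puromycin. The labels carry the same treatment text for the control samples, so they do not say whether the controls received a virus, a non-targeting hairpin or the selection. They name 1 shRNA against GATA6 without its sequence, and nothing in them tells whether replicate arrays hold RNA of independent cultures. P-values therefore reflect only how far replicate arrays lie apart, and that distance may be technical. GATA6 is a zinc finger transcription factor that binds the DNA sequence GATA and is expressed in the epithelium of the stomach and intestine. It is known for its part in the development of endoderm and in the renewal and differentiation of gut epithelium. Amplification of its locus occurs in tumours of the upper gut, and its targets depend on the partner factors and the open chromatin of each cell.

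All values are deposited log2 expression values whose lowest level was 2.08. Each array had 28.7 to 29.9% of its probe sets there. Array medians ran from 4.73 to 4.98. The 2 arrays of a group correlated at 0.995 to 0.997 over the genes measured in both lines and above log2 4 in all 8 arrays. Between treatments within a line the range was 0.962 to 0.966, and between lines it was 0.697 to 0.745. All 7 epithelial markers exceeded log2 4 in every group. Of 8 intestinal markers 6 did so in Caco-2, where GPA33 and LGALS4 did not, and 4 did so in HUG1N. CDX1 held the same value, 4.53, in every Caco-2 array, so that its expression there is uncertain. CDX1 and LGALS4 were higher in HUG1N, with control arrays at 7.2 and 7.6 and at 14.25 and 14.18. Of 8 gastric markers 7 exceeded log2 4 in HUG1N control and 6 in HUG1N shRNA, against 3 in both Caco-2 groups. Of the markers of other cell types at most 2 of 9 fibroblast, 1 of 6 immune and 1 of 5 endothelial genes were over log2 4 in any group. The fibroblast marker LUM moved with the shRNA in Caco-2, at 3.52 and 3.33 in control and 7.45 and 7.62 in shRNA, and was at most 2.63 in HUG1N. The endothelial marker PECAM1 (5.07 and 5.51) and the monocyte marker CD14 (4.85 and 4.37) were over log2 4 in Caco-2 control. The part of such cells in the results was not tested. The 2 signs of RNA quality, from ACTB and GAPDH, both moved with the treatment in opposite directions in the 2 lines. The gap between the 3′ and 5′ control probe sets of ACTB went from 1.92 ± 0.02 (SD, n = 2) to 1.55 ± 0.13 (SD, n = 2) in Caco-2 and from 2.51 ± 0.23 (SD, n = 2) to 3.73 ± 0.06 (SD, n = 2) in HUG1N, a difference between the lines of 1.59 on the log2 scale. For GAPDH the mean gap of 2 arrays went from 0.162 to 0.074 in Caco-2 and from 0.405 to 0.631 in HUG1N. The difference between the lines was 0.31 for GAPDH. The part of these gaps in the opposite responses below was not tested.

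GATA6 messenger RNA was high in all arrays and fell slightly in Caco-2, while its lower level in HUG1N shRNA did not pass the test. Its log2 values were 12.63 and 12.45 in Caco-2 control and 12.23 and 12.02 in Caco-2 shRNA, and 12.54 and 12.45 in HUG1N control and 12.27 and 12.22 in HUG1N shRNA. The control and shRNA arrays did not overlap within either line. The change was -0.42 (SE 0.10, limma adjusted p = 0.0224) in Caco-2 and -0.25 (SE 0.10, limma adjusted p = 0.0879) in HUG1N. The difference between the lines was 0.16 (SE 0.15, limma adjusted p = 0.396), with a 95% interval of -0.19 to 0.52, which spans no change and changes as large as those in either line.

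The 2 lines responded in different ways at a large share of genes. A gene was called when its adjusted p from limma was under 0.05, with adjustment over all 7696 genes tested. The interaction was called in 2995 of the 6768 genes measured in both lines (44.3%), higher in HUG1N for 1479 and lower for 1516. Over all genes tested the interaction was called in 44.9%, in 22.2% as higher in HUG1N and in 22.7% as lower. Of the 2995 genes, 1966 had changes of opposite sign and 1029 had changes of the same sign but different size. Of the 1966, 546 were called in both lines, 507 in Caco-2 only, 798 in HUG1N only and 115 in neither. The sign of a change that was not called is uncertain. In the separate comparisons 1359 genes rose and 1288 fell in Caco-2, against backgrounds of 19.5% and 19.2% of all genes tested. Without Caco-2 control replicate 1 or 2 the calls in Caco-2 went from 2647 to 1693 or 1611. In HUG1N 1787 rose and 1658 fell, against backgrounds of 24.7% and 23.9%. The median size of the change was 0.26 in Caco-2 and 0.34 in HUG1N on the log2 scale.

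Both lines were called for 1533 genes, which fall into 4 classes. In 472 genes both lines rose (6.29% of all genes tested were in this class) and in 515 both fell (6.89%). In 285 Caco-2 rose and HUG1N fell (3.86%), and in 261 Caco-2 fell and HUG1N rose (3.44%). Genes that rose in both lines made up 34.7% of the rises in Caco-2 and 26.4% of those in HUG1N. Genes that fell in both made up 40.0% of the falls in Caco-2 and 31.1% of those in HUG1N. Genes that rose in Caco-2 and fell in HUG1N were 21.0% of the Caco-2 rises and 17.2% of the HUG1N falls. The reverse class held 20.3% of the Caco-2 falls and 14.6% of the HUG1N rises. All 546 genes of the opposite classes also had a called interaction, which 2 called changes of opposite sign make nearly certain. Control and shRNA arrays of the 1533 genes did not overlap in either line, against 4000 of all 6768 genes measured in both lines. A further 1114 genes were called in Caco-2 alone, 730 of them with a called interaction. For HUG1N alone the numbers were 1912 and 1270, and 2209 genes were called in neither line. Single Caco-2 arrays moved these counts. The class that fell in Caco-2 and rose in HUG1N held 127 and 120 genes without Caco-2 control replicate 1 and 2, and 162 and 163 without Caco-2 shRNA replicate 1 and 2. The reverse class held 179 genes without Caco-2 control replicate 1, and without Caco-2 control replicate 2 the shared classes held 306 and 317.

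**Figure D1:**
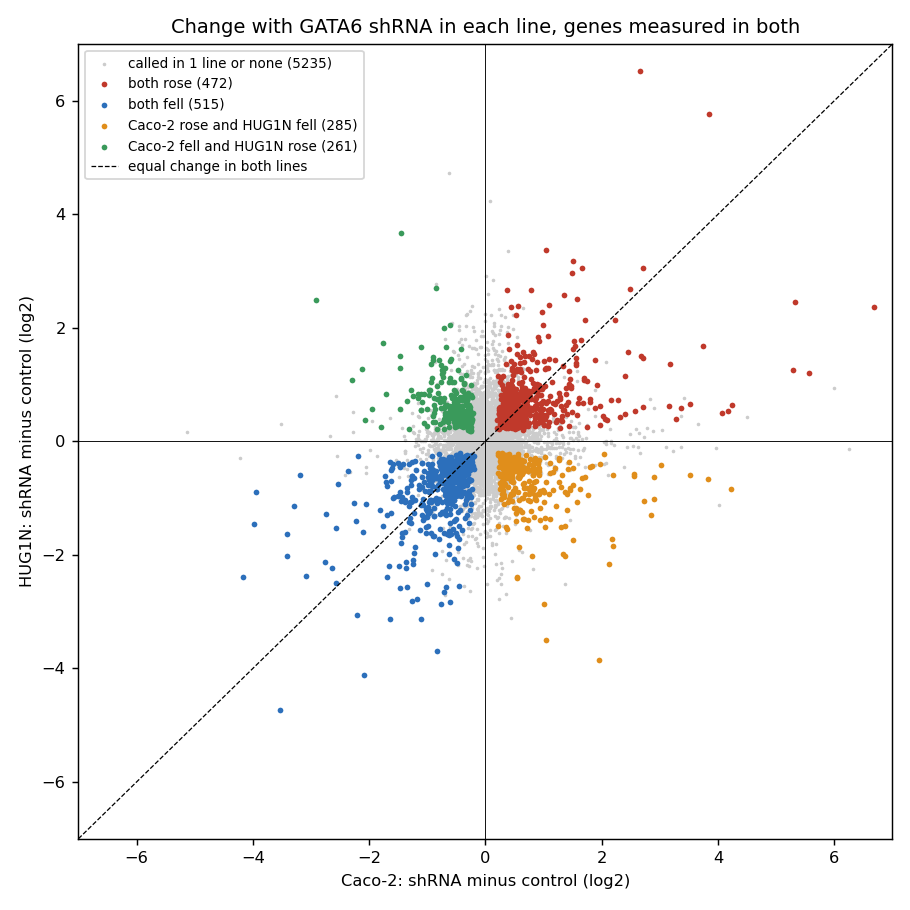
Log2 change with GATA6 shRNA in Caco-2 (horizontal axis) and in HUG1N (vertical axis), each point 1 of the 6768 genes measured in both lines and each value the mean of 2 shRNA arrays minus the mean of 2 control arrays. The 472 and 515 genes called in both lines with the same sign lie in the upper right and lower left, and the 285 and 261 called with opposite signs lie in the other quadrants.

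Across all 6768 genes the 2 changes had the same sign in 3752 (55.4%) and opposite signs in 3016. The Pearson correlation of the 2 changes across genes was 0.21 and the Spearman correlation 0.17, given as a description, since genes are not independent replicates and the 4 groups share no arrays between lines. Over the 6505 genes above log2 4 in all 8 arrays the values were 0.18 and 0.16. Changes of at least 2-fold in both lines, each called, were found in 47 genes that rose in both, 71 that fell in both, 21 that rose in Caco-2 and fell in HUG1N, and 8 with the reverse pattern. Sharing a direction did not mean an equal response. The interaction was called in 176 of the 472 genes that rose in both lines and in 158 of the 515 that fell in both. The interval of the interaction lay within 0.5 of 0 on the log2 scale for 160 and 187 genes of these classes. Where a gene had a second probe set measured in both lines, the sign of its interaction matched in 86 of 93 genes of the class that rose in Caco-2 and fell in HUG1N, and in 84 of 89 of the reverse class. The signs of both changes, which define the classes, matched in 75 of 93 (80.6%) and 71 of 89 (79.8%). In the classes that rose in both lines and fell in both, the sign of the interaction matched in 74.4% and 69.9% and both signs in 78.8% and 85.5%. Over all 2162 genes with a second probe set the sign of the interaction matched in 76.5% and both signs in 60.3%.

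GATA6 recognises GATA sites, and the promoter windows of the classes were searched for the letters AGATAA or AGATAG, and TGATAA or TGATAG, on both strands, from 250 bases before to 50 bases after the RefSeq start. A gene had a match in 13.9% of 389 promoters of genes that rose in both lines, 16.7% of 430 that fell in both, 17.9% of 234 that rose in Caco-2 and fell in HUG1N, and 15% of 220 with the reverse pattern. The share was 13.6% over 5701 promoters of genes measured in both lines and 25.5% over all 27305 promoters of the table. A match is a run of letters and not a measured binding site. Among named genes with a promoter, 3 of 10 that rose in both lines had a match. The count was 3 of 9 for those that fell in both. For genes that rose in Caco-2 and fell in HUG1N it was 3 of 9, and for the reverse 1 of 6. The 4 windows below show the 250 bases before the start for 1 named gene from each class, chosen because it had a match. Matches are in capitals and the rest in lower case, 5′ to 3′ on the gene's own strand (minus in GRCh38.p14 for all 4). SEMA3C rose in both lines (chr7:80922390-80922639), FMOD fell in both (chr1:203351123-203351372), RAB3B rose in Caco-2 and fell in HUG1N (chr1:51990701-51990950), and TCF4 did the reverse by its brightest probe set (chr18:55635958-55636207).
SEMA3C: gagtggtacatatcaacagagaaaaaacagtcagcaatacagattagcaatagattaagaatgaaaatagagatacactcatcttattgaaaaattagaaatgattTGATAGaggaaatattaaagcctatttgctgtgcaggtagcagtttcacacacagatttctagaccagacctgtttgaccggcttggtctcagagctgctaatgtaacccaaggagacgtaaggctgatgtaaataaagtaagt
FMOD: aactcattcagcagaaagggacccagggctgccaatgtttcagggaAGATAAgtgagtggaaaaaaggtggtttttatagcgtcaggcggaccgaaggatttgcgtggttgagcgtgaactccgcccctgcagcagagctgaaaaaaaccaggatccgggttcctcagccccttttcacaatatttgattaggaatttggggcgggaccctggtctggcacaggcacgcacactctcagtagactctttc
RAB3B: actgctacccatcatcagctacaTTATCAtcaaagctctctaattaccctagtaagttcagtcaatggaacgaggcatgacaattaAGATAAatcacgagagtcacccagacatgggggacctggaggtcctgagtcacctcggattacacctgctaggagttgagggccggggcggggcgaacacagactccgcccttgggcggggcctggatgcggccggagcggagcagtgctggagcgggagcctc
TCF4: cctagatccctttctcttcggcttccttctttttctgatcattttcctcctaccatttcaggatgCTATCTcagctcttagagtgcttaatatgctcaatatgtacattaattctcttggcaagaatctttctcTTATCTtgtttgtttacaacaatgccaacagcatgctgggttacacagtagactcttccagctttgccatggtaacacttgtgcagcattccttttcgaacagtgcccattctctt
The first base of the match lay 144 bases before the start in SEMA3C and 204 in FMOD. RAB3B had matches at 227 and 164 bases and TCF4 at 185 and 116. The matches in TCF4 and the farther one in RAB3B are in the reverse orientation.

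Genes that rose in both lines were led by P3H2, which encodes an enzyme that hydroxylates prolines of collagen. Its log2 values were 6.09 and 6.36 in Caco-2 control and 8.89 and 8.99 in Caco-2 shRNA, and 6.31 and 5.64 in HUG1N control and 9.09 and 8.98 in HUG1N shRNA. It rose by 2.71 (SE 0.22, limma adjusted p = 0.000333) in Caco-2 and by 3.06 (SE 0.22, limma adjusted p = 0.000209) in HUG1N. The interaction of 0.34 had an interval of -0.41 to 1.10, so that the rises were not shown to differ. RAB15, a small GTPase of the endocytic pathway, had the smallest interaction of the 11 named genes of the class. Its values were 7.92 and 8.01 in Caco-2 control and 10.12 and 10.28 in Caco-2 shRNA, and 7.72 and 7.86 in HUG1N control and 10.02 and 9.83 in HUG1N shRNA. The rises of 2.23 and 2.13 differed by -0.10 (interval -0.45 to 0.25). Its arrays started at similar levels in the 2 lines and ended at similar levels, with no overlap between treatments. SEMA3C, a secreted semaphorin, stood at 7.997 and 7.96 in Caco-2 control and 9.86 and 9.54 in Caco-2 shRNA, and 7.59 and 7.28 in HUG1N control and 9.40 and 9.75 in HUG1N shRNA. It rose by 1.72 and 2.14 (limma adjusted p = 0.00068 and 0.000281), with an interaction of 0.42 (interval -0.16 to 1.003). CCDC68, a protein of the centriole, rose by 1.65 and 1.78. DENND1A, an activator of Rab35 in membrane traffic, rose by 1.54 and 1.69. For both, the interval of the interaction spanned 0 (-0.56 to 0.81 and -0.31 to 0.60).

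Other genes rose in both lines, and all of them but FGFBP1 had a called interaction by their brightest probe sets. PCDH7, a cell adhesion protein of the protocadherin family, had values of 7.02 and 6.92 in Caco-2 control and 8.53 and 8.72 in Caco-2 shRNA, and 5.88 and 6.50 in HUG1N control and 9.45 and 9.04 in HUG1N shRNA. Its rise was 1.66 in Caco-2 and 3.06 in HUG1N, an interaction of 1.40 (SE 0.32, limma adjusted p = 0.0152), which was not called without Caco-2 control replicate 1, without Caco-2 shRNA replicate 1 or with the mean of its probe sets (limma adjusted p of up to 0.0844 over all alternatives). ANXA9, an annexin, was higher in Caco-2 from the start, at 8.55 and 8.58 in Caco-2 control and 10.18 and 10.09 in Caco-2 shRNA, and 5.34 and 4.98 in HUG1N control and 7.70 and 7.64 in HUG1N shRNA. The rise of 2.51 in HUG1N exceeded that of 1.57 in Caco-2 by 0.95 (SE 0.17, limma adjusted p = 0.00636), which was not called with the mean of its probe sets (limma adjusted p = 0.0836). H2AC6, a histone of the H2A family whose copies are near-identical, rose by 2.44 and 1.58, and its interaction of -0.86 (SE 0.25, limma adjusted p = 0.0331) lost its call when any 1 of 6 arrays was left out, with values from -1.10 to -0.63 over all alternatives. CLIC5, a chloride channel protein linked to the cytoskeleton of microvilli, was below log2 4 in HUG1N control, at 2.76 and 2.49, and reached 9.17 and 9.12 in HUG1N shRNA. In Caco-2 it went from 8.34 and 8.54 to 11.15 and 11.05. The rise was 6.32-fold in Caco-2 and at least 35.4-fold in HUG1N. A second probe set of this gene gave rises of 2.99 and 3.36 on the log2 scale, closer to each other. With the mean of its probe sets the interaction of CLIC5 was not called (limma adjusted p = 0.086). FGFBP1, a secreted carrier of fibroblast growth factors, went from 4.21 and 4.58 to 7.09 and 6.68 in Caco-2 and from 4.56 and 3.84 to 7.35 and 6.42 in HUG1N, with an interaction of 0.19 (interval -1.10 to 1.48). ALPG, a placental-type alkaline phosphatase with near-identical relatives, rose in both lines, but its Caco-2 control arrays read 2.30 and 2.23, below log2 4, so that its rise to 7.45 and 7.72 there was at least 12-fold. In HUG1N it went from 9.35 and 9.28 to 11.78 and 11.75. Its 2 probe sets gave interactions of -2.87 and 0.68, the first as small as -1.09 over all alternatives, so that the line with the larger rise is uncertain.

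Among genes that fell in both lines, SLC35G2, a member of the nucleotide sugar transporter family, fell by amounts that were not shown to differ. Its values were 7.27 and 7.09 in Caco-2 control and 4.61 and 4.61 in Caco-2 shRNA, and 10.62 and 10.83 in HUG1N control and 8.27 and 8.21 in HUG1N shRNA. The falls were 2.57 (SE 0.10, limma adjusted p = 1.84e-05) and 2.49 (SE 0.10, limma adjusted p = 4.54e-05), with an interaction of 0.08 (interval -0.26 to 0.42). Both Caco-2 shRNA arrays held the same value, so that the size of the fall there may be only a bound. The control arrays of HUG1N were far above those of Caco-2, and no shRNA array reached a control array of its line. PRSS2, a trypsinogen, had means of 9.93 ± 0.097 (SD, n = 2) in Caco-2 control and 7.29 ± 0.25 (SD, n = 2) in Caco-2 shRNA, and of 9.70 ± 0.11 (SD, n = 2) in HUG1N control, while both HUG1N shRNA arrays read 7.47. Its falls of 2.64 and 2.23 were not shown to differ, with an interaction of 0.41 (SE 0.19, limma adjusted p = 0.117). Caco-2 shRNA replicate 1 held the same value as both HUG1N shRNA arrays, so that the sizes of the falls could hardly be compared. A second probe set of this gene, which has near-identical relatives, gave an interaction of -0.52 in place of 0.41. FKBP1B, a prolyl isomerase that binds ryanodine receptors, fell by 1.66 and 2.20 (interval of the interaction -1.48 to 0.40). NRIP3 went from 6.49 and 6.35 to 3.06 and 2.97 in Caco-2 and from 6.69 and 5.32 to 4.65 and 3.33 in HUG1N. Its call in HUG1N was lost without HUG1N control replicate 1 or HUG1N shRNA replicate 2, and its limma adjusted p there reached 0.103 over all alternatives.

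MMP1, the interstitial collagenase that cleaves fibrillar collagen, showed a fall that differed between the lines. Its values were 8.31 and 8.40 in Caco-2 control and 6.54 and 5.99 in Caco-2 shRNA, and 12.92 and 12.62 in HUG1N control and 8.78 and 8.53 in HUG1N shRNA. It fell by 2.09 in Caco-2 and fell by 4.12 in HUG1N, an interaction of -2.03 (SE 0.28, limma adjusted p = 0.00256). FMOD, a small proteoglycan that binds collagen, read 8.60 and 8.93 in Caco-2 control and 5.66 and 5.68 in Caco-2 shRNA, and 6.58 and 6.79 in HUG1N control and 4.32 and 4.31 in HUG1N shRNA. It fell by 3.09 and 2.37, and the interaction of 0.72 (SE 0.18, limma adjusted p = 0.0191) lost its call without Caco-2 shRNA replicate 1 or 2, HUG1N control replicate 1 or HUG1N shRNA replicate 1 (limma adjusted p of up to 0.0588 over all alternatives). HSDL2, a peroxisomal dehydrogenase-like protein, fell by 2.11 and 1.60, from 11.72 and 11.67 in Caco-2 control and 10.46 and 10.33 in HUG1N control. Its interaction was 0.51 (SE 0.12, limma adjusted p = 0.0141), and without Caco-2 control replicate 1 the adjusted p from limma was 0.051. GPRC5B, an orphan G protein-coupled receptor, fell by 2.21 and 3.06. CA12, a membrane carbonic anhydrase, fell by 2.76 and 2.13. The interactions of GPRC5B and CA12, -0.84 and 0.62, were called but lost their call in 12 of 21 alternatives each, and the 4 probe sets of CA12 gave both signs.

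Some of the genes that fell in both lines passed below log2 4, where the size of a fall is only a bound. BCL2L14, a member of the BCL2 family of apoptosis regulators, read 6.91 and 7.06 in Caco-2 control and 3.80 and 3.10 in Caco-2 shRNA, and 8.04 and 8.29 in HUG1N control and 3.44 and 3.44 in HUG1N shRNA. No shRNA array of either line exceeded log2 4, which puts the fall at 7.9-fold or more in Caco-2 and 18-fold or more in HUG1N. ROR1, a receptor tyrosine kinase of the non-canonical Wnt pathway, read 6.18 and 6.76 in Caco-2 control and 2.29 and 2.29 in Caco-2 shRNA, and 6.43 and 6.90 in HUG1N control and 4.33 and 4.25 in HUG1N shRNA. It was at least 5.53-fold lower in Caco-2 shRNA than in control and 5.21-fold lower in HUG1N. With values under log2 4 set to 4 the interaction of ROR1 was 0.09 (limma adjusted p = 0.837), so that no difference between lines was measurable above that level. All 22 named genes of the shared classes kept both calls in the 20 alternatives examined, except NRIP3.

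**Figure D2:**
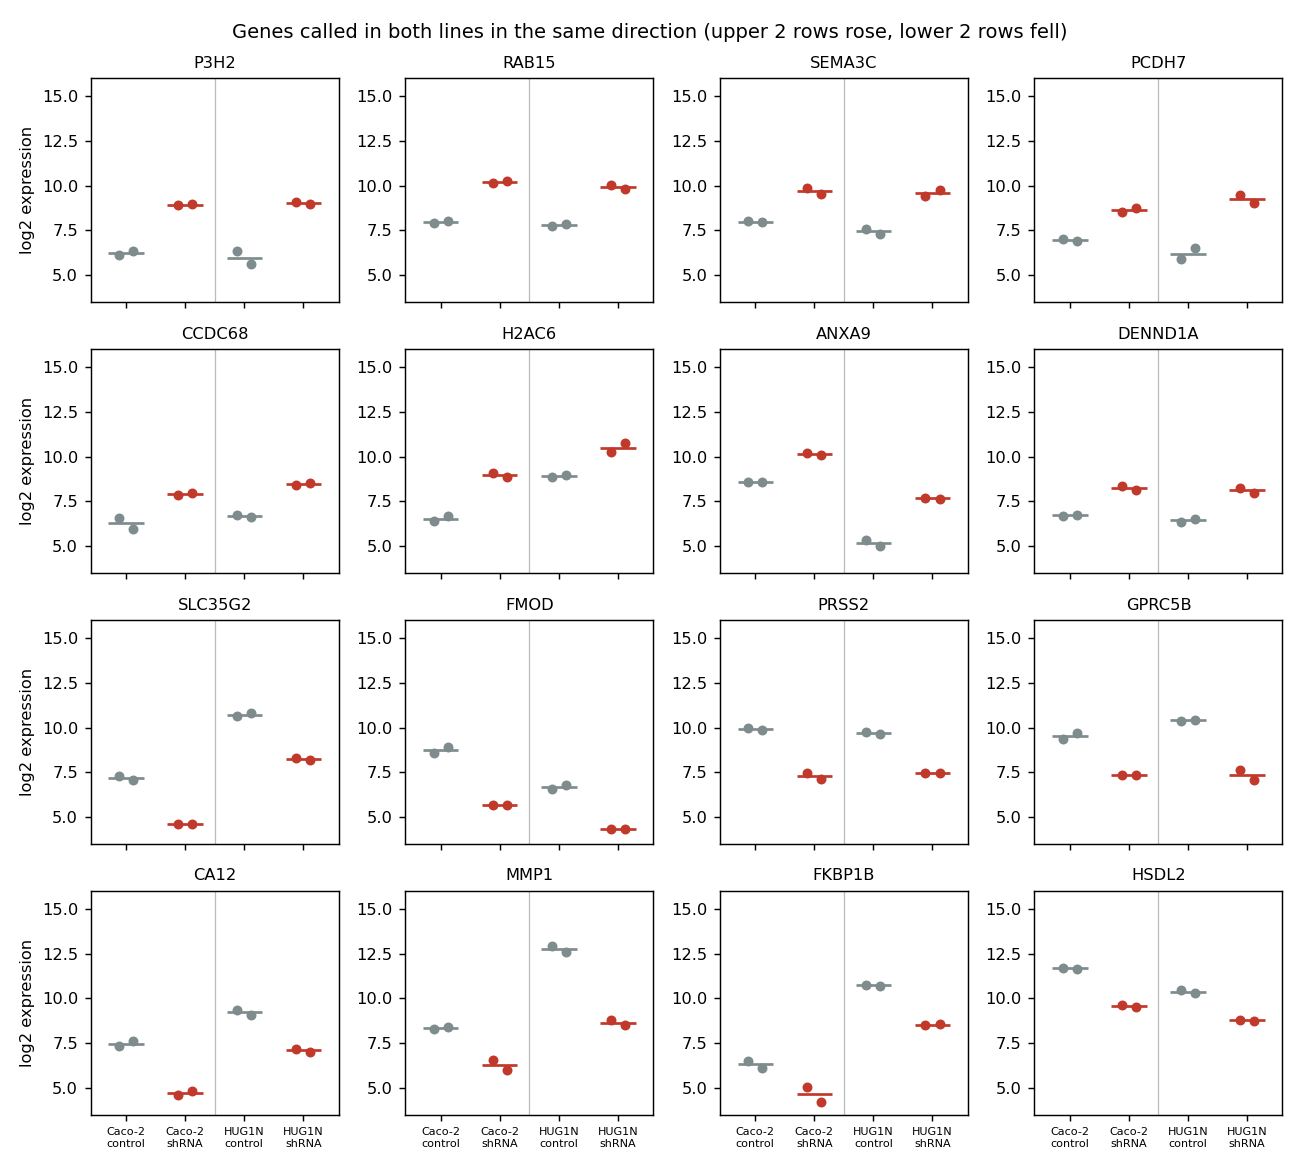
Log2 expression of 16 genes called in both lines in the same direction. Each point is 1 array, each bar the mean of 2, grey for control and red for shRNA, with Caco-2 to the left and HUG1N to the right of the vertical line. The upper 2 rows rose and the lower 2 rows fell, and no shRNA array overlaps a control array of its line.

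Genes that rose in Caco-2 and fell in HUG1N included ATF3, IER3 and BHLHE40. ATF3, a transcription factor induced by stress, read 5.44 and 5.78 in Caco-2 control and 7.34 and 6.90 in Caco-2 shRNA, and 10.44 and 10.28 in HUG1N control and 8.55 and 8.71 in HUG1N shRNA. It rose by 1.51 (SE 0.18, limma adjusted p = 0.00138) in Caco-2 and fell by 1.73 (SE 0.18, limma adjusted p = 0.000679) in HUG1N, an interaction of -3.24 (SE 0.25, limma adjusted p = 0.000344). The HUG1N control arrays were the highest of the 8 and the Caco-2 control arrays the lowest. IER3, an immediate early gene, read 9.59 and 9.79 in Caco-2 control and 10.99 and 11.21 in Caco-2 shRNA, and 15.38 and 15.46 in HUG1N control and 14.21 and 14.20 in HUG1N shRNA. Its rise of 1.41 and fall of 1.21 left all HUG1N arrays above all Caco-2 arrays. BHLHE40, a repressor linked to hypoxia and the circadian clock, read 7.10 and 6.73 in Caco-2 control and 9.18 and 9.01 in Caco-2 shRNA, and 11.37 and 11.18 in HUG1N control and 8.72 and 10.41 in HUG1N shRNA. The HUG1N shRNA arrays differed by more than those of any other group, and the HUG1N fall of 1.72 (SE 0.50, limma adjusted p = 0.0306) rests on them. BHLHE40 kept both calls in 12 of 20 alternatives. They were lost without any 1 of the 4 Caco-2 arrays and without either HUG1N control array, with a limma adjusted p of up to 0.0877 in Caco-2 and 0.117 in HUG1N over all alternatives.

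GSTM3, a glutathione transferase that conjugates xenobiotics, read 9.43 and 9.48 in Caco-2 control and 10.80 and 10.86 in Caco-2 shRNA, and 11.86 and 11.81 in HUG1N control and 9.92 and 9.73 in HUG1N shRNA. It rose by 1.37 (SE 0.08, limma adjusted p = 0.000103) in Caco-2 and fell by 2.01 (SE 0.08, limma adjusted p = 4.84e-05) in HUG1N, and the shRNA arrays of Caco-2 ended above those of HUG1N although the control arrays had stood in the reverse order. MT1X, a metallothionein that binds zinc and copper, read 5.70 and 5.36 in Caco-2 control and 6.69 and 7.03 in Caco-2 shRNA, and 10.90 and 10.40 in HUG1N control and 8.43 and 8.89 in HUG1N shRNA, with a rise of 1.33 and a fall of 1.99. Metallothioneins are near-identical in sequence, and its probe set may take signal from relatives. A second probe set gave changes of 1.98 and -2.22. TGM2, a transglutaminase that crosslinks proteins of the matrix, read 7.12 and 7.27 in Caco-2 control and 8.85 and 8.70 in Caco-2 shRNA, and 5.40 and 5.42 in HUG1N control and 4.34 and 4.33 in HUG1N shRNA. It differed from ATF3 in that Caco-2 control was above HUG1N control, and the change widened the gap. With the mean of its probe sets the fall of TGM2 in HUG1N was not called (limma adjusted p = 0.407).

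Transporters were among them as well. SLC15A1, the intestinal transporter of di- and tripeptides, read 5.77 and 5.96 in Caco-2 control and 8.93 and 8.49 in Caco-2 shRNA, and 6.84 and 5.95 in HUG1N control and 4.91 and 5.29 in HUG1N shRNA. The rise of 2.85 (SE 0.31, limma adjusted p = 0.00101) in Caco-2 and the fall of 1.29 (SE 0.31, limma adjusted p = 0.0155) in HUG1N gave an interaction of -4.14 (SE 0.44, limma adjusted p = 0.000991). Its call in HUG1N was lost without HUG1N shRNA replicate 1 (limma adjusted p of up to 0.08 over all alternatives). SLC7A7, a basolateral exporter of cationic amino acids, was high in Caco-2 and low in HUG1N, at 12.81 and 12.97 in Caco-2 control and 14.13 and 13.88 in Caco-2 shRNA, and 7.31 and 7.22 in HUG1N control and 6.21 and 5.60 in HUG1N shRNA, and moved further apart. RAB3B, a GTPase of secretory vesicles, read 6.90 and 6.99 in Caco-2 control and 8.31 and 8.32 in Caco-2 shRNA, and 5.72 and 5.65 in HUG1N control and 4.48 and 3.92 in HUG1N shRNA, with 1 HUG1N shRNA array under log2 4. IRF9, the DNA-binding subunit of the interferon-stimulated factor ISGF3, read 4.04 and 3.98 in Caco-2 control and 5.36 and 5.10 in Caco-2 shRNA, and 7.79 and 7.88 in HUG1N control and 6.57 and 6.83 in HUG1N shRNA. GREB1L, a paralogue of GREB1, had an interaction of -5.80 (SE 0.22, limma adjusted p = 2.93e-05). It read 3.30 and 3.04 in Caco-2 control and 5.29 and 4.93 in Caco-2 shRNA, and 9.31 and 9.52 in HUG1N control and 5.51 and 5.62 in HUG1N shRNA. Its Caco-2 control arrays lay below log2 4, so that the rise there was at least 2.16-fold, against a fall of 14.5-fold in HUG1N, and with values under log2 4 set to 4 the interaction was -4.97. The shRNA arrays of the 2 lines ended near each other.

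Genes that fell in Caco-2 and rose in HUG1N were led by TNFRSF11B, the decoy receptor osteoprotegerin that binds RANKL. It read 9.26 and 9.42 in Caco-2 control and 6.29 and 6.54 in Caco-2 shRNA, and 4.93 and 6.15 in HUG1N control and 8.39 and 7.66 in HUG1N shRNA. It fell by 2.92 (SE 0.42, limma adjusted p = 0.00291) in Caco-2 and rose by 2.49 (SE 0.42, limma adjusted p = 0.00401) in HUG1N, which gave an interaction of 5.41 (SE 0.59, limma adjusted p = 0.00111). The HUG1N control arrays differed from each other, and still did not overlap with the shRNA arrays. TFF3, the trefoil peptide secreted by goblet cells, read 11.83 and 11.77 in Caco-2 control and 10.29 and 10.37 in Caco-2 shRNA, and 10.91 and 10.94 in HUG1N control and 12.13 and 12.29 in HUG1N shRNA. Its replicate arrays were close, and the changes of -1.47 and 1.29 gave an interaction of 2.76 (SE 0.11, limma adjusted p = 3.74e-05). The order of the lines turned, with Caco-2 higher among controls and HUG1N higher among shRNA arrays. DPP4, a dipeptidyl peptidase of the enterocyte brush border, read 12.40 and 12.28 in Caco-2 control and 11.58 and 11.23 in Caco-2 shRNA, and 8.06 and 8.15 in HUG1N control and 9.37 and 9.56 in HUG1N shRNA. It fell by 0.93 and rose by 1.36, and its other 2 probe sets gave the same signs. SLC12A2, the basolateral sodium-potassium-chloride cotransporter of secretory epithelium, read 9.36 and 9.44 in Caco-2 control and 7.79 and 8.07 in Caco-2 shRNA, and 6.07 and 6.64 in HUG1N control and 8.05 and 7.68 in HUG1N shRNA. Its shRNA arrays overlapped between lines, while its control arrays were far apart.

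NAT1, an arylamine N-acetyltransferase, fell from 9.38 and 9.44 to 8.52 and 8.43 in Caco-2 and rose from 6.22 and 6.65 to 7.67 and 7.31 in HUG1N. ANXA13, an annexin of intestinal epithelium, fell from 9.61 and 9.94 to 8.10 and 8.53 in Caco-2. In HUG1N it was below log2 4 in control, at 3.16 and 3.17, and reached 7.06 and 6.62, at least 7.15-fold higher. ANXA13 and ANXA9 thus differed in Caco-2, where one fell and the other rose, and both rose in HUG1N. TCF4, a basic helix-loop-helix factor distinct from the Wnt effector TCF7L2, read 9.55 and 9.34 in Caco-2 control and 7.58 and 7.07 in Caco-2 shRNA, and 4.18 and 3.95 in HUG1N control and 5.38 and 5.31 in HUG1N shRNA. MATN2, a matrilin of the extracellular matrix, read 5.997 and 5.87 in Caco-2 control and 4.71 and 3.65 in Caco-2 shRNA, and 3.33 and 3.40 in HUG1N control and 5.15 and 5.05 in HUG1N shRNA, and its HUG1N control arrays were below log2 4. A second probe set of TCF4 gave changes of -2.11 in Caco-2 and -0.42 in HUG1N, and with the mean of its probe sets the rise in HUG1N was not called (limma adjusted p = 0.401), so that its direction in HUG1N is uncertain. SIKE1, a suppressor of the kinase IKK-epsilon, fell by 2.29 in Caco-2 and rose by 1.08 in HUG1N. CPAP, a protein of centriole assembly, fell by 1.10 and rose by 1.67. The zinc finger gene ZNF124 fell by 0.93 and rose by 1.11. Single arrays decided the calls of these 3 genes. SIKE1 lost its HUG1N call without either HUG1N shRNA array (limma adjusted p of up to 0.0925 over all alternatives). CPAP lost a call without any 1 Caco-2 array or either HUG1N shRNA array (up to 0.193 in Caco-2). ZNF124 lost a call without any 1 of 6 arrays, all but Caco-2 control replicate 1 and HUG1N shRNA replicate 2 (up to 0.143 in Caco-2 and 0.0816 in HUG1N). The interaction itself was called in all 21 alternatives for each of the 22 named genes of the opposite classes, where the alternative kept the gene. These genes were picked for large changes of opposite sign, which make such a call likely.

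**Figure D3:**
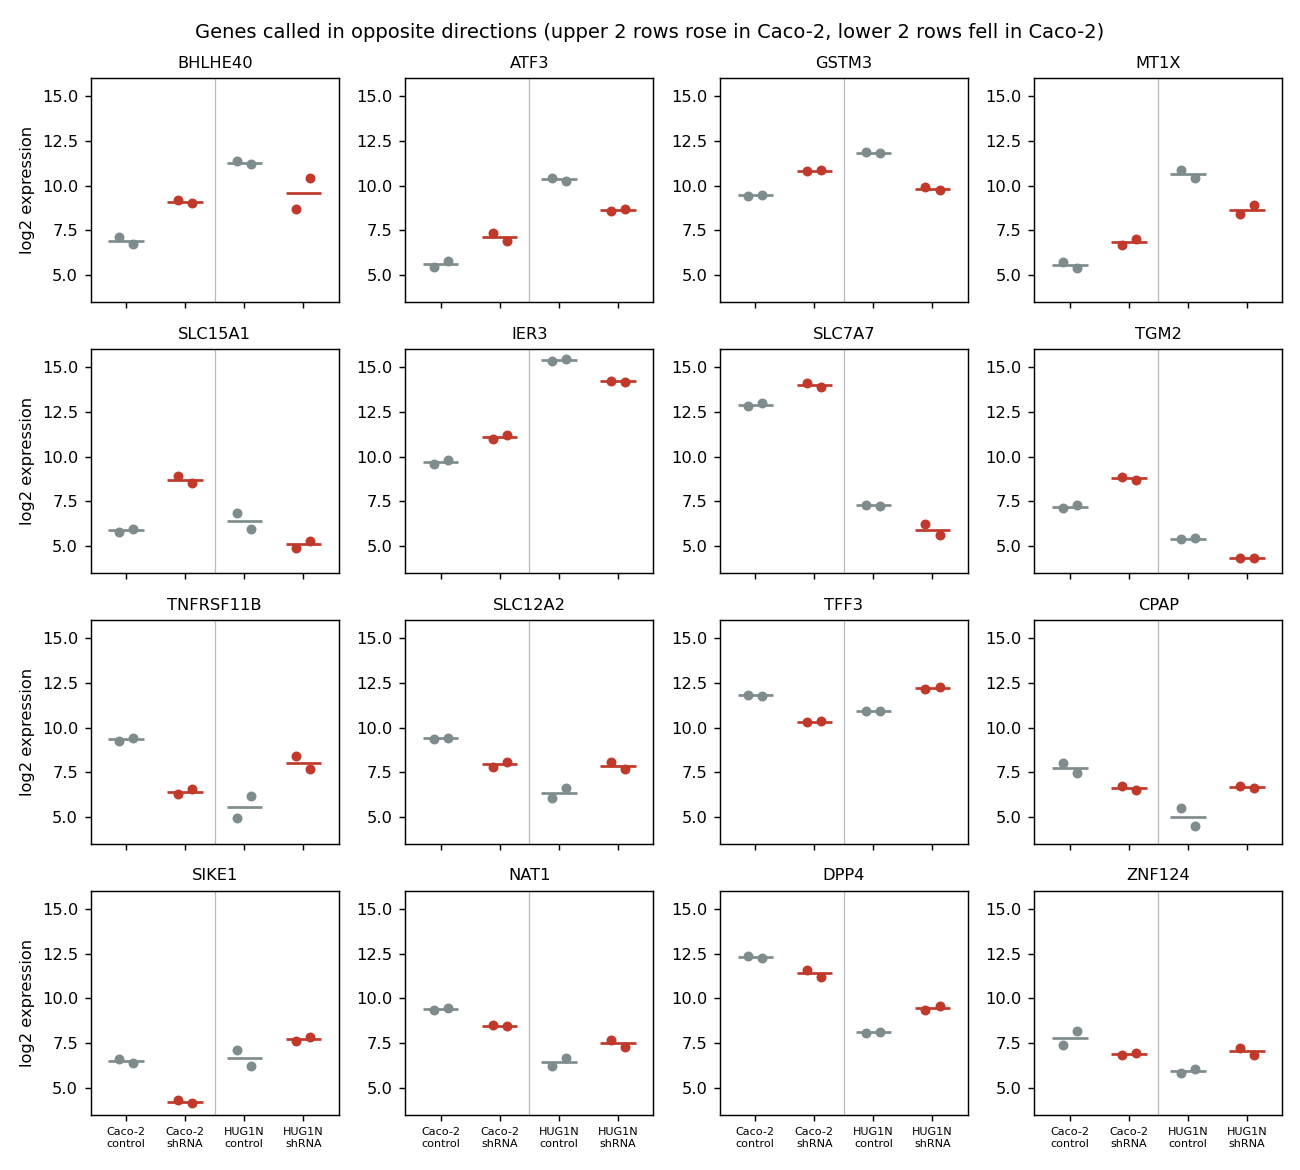
Log2 expression of 16 genes called in both lines in opposite directions, drawn as in the plot of shared genes. The upper 2 rows rose in Caco-2 and fell in HUG1N, the lower 2 rows did the reverse, and BHLHE40 in HUG1N shRNA (8.72 and 10.41) shows the widest spread within a group.

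Shared direction with unequal size is described for 3 genes that, by their brightest probe sets, rose strongly in Caco-2 and little in HUG1N. CEACAM6, an adhesion glycoprotein of the carcinoembryonic antigen family, read 9.26 and 9.30 in Caco-2 control and 13.37 and 13.32 in Caco-2 shRNA, and 11.52 and 11.50 in HUG1N control and 11.99 and 12.01 in HUG1N shRNA. It rose by 4.06 (SE 0.06, limma adjusted p = 6.55e-07) in Caco-2 and by 0.50 (SE 0.06, limma adjusted p = 0.00131) in HUG1N, an interaction of -3.57 (SE 0.09, limma adjusted p = 6.73e-06). The Caco-2 control arrays were the lowest of the 8, and the Caco-2 shRNA arrays were above those of HUG1N. TFAP2C, the transcription factor AP-2 gamma, rose by 4.24 and 0.64. PLXND1, a semaphorin receptor, rose by 3.27 and 0.40. The interactions of TFAP2C and PLXND1 were -3.60 and -2.87 (limma adjusted p = 4.06e-05 and 4.42e-05). A second probe set of CEACAM6 gave changes of 4.57 in Caco-2 and 0.09 in HUG1N. For PLXND1 a second probe set gave 1.67 and 0.05, so that the small rises of both genes in HUG1N are uncertain.

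For some genes the response was called in a single line, the interaction was called, and the interval of the change in the other line lay within 0.5 of 0. By that rule 272 genes rose and 241 fell in Caco-2 alone, and 513 rose and 409 fell in HUG1N alone. In Caco-2 the largest rises were INHBB, a subunit of activin B, PLAUR, the urokinase receptor, CEACAM5, the carcinoembryonic antigen, and PTGS2, the inducible cyclooxygenase. CEACAM5 read 6.54 and 6.43 in Caco-2 control and 9.54 and 9.64 in Caco-2 shRNA, and 12.40 and 12.35 in HUG1N control and 12.34 and 12.20 in HUG1N shRNA, with changes of 3.10 and -0.10. For INHBB, PLAUR and PTGS2 the Caco-2 rises were 3.37, 3.22 and 3.04, and the HUG1N changes were -0.09, -0.17 and 0.21. In all 4 the HUG1N arrays were above the Caco-2 control arrays. Falls in Caco-2 alone were led by ALDH1A1, an enzyme of retinoic acid synthesis. It read 13.47 and 13.32 in Caco-2 control and 11.16 and 11.06 in Caco-2 shRNA, and 10.94 and 11.31 in HUG1N control and 11.33 and 11.25 in HUG1N shRNA. TESC, a calcium-binding protein, changed by -1.87 in Caco-2 and -0.27 in HUG1N. The receptor FGFR2 changed by -1.43 and 0.24, and GPX2, the gastrointestinal glutathione peroxidase, by -1.40 and 0.09.

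In HUG1N alone, rises were led by EID1, an inhibitor of acetyltransferase-dependent differentiation. It read 11.53 and 11.38 in Caco-2 control and 11.52 and 11.37 in Caco-2 shRNA, and 8.49 and 8.52 in HUG1N control and 10.54 and 10.69 in HUG1N shRNA, so that its HUG1N level came closer to the nearly constant Caco-2 level. TUBA1A, an alpha tubulin, rose by 1.94, SPA17, a sperm surface protein, by 1.87, and KMT5B, a histone H4 methyltransferase, by 1.86. Their changes in Caco-2 were -0.20, 0.17 and -0.07. Falls in HUG1N alone were led by CHAC1, an enzyme that degrades glutathione, and PHGDH, which catalyses the first step of serine synthesis. PHGDH read 9.88 and 9.98 in Caco-2 control and 10.09 and 10.16 in Caco-2 shRNA, and 9.67 and 9.43 in HUG1N control and 7.13 and 7.09 in HUG1N shRNA. The lines had similar control levels and differed after shRNA, with an interaction of -2.64 (SE 0.14, limma adjusted p = 8.68e-05). CHAC1 went from 7.12 and 6.62 to 4.16 and 4.54 in HUG1N and stayed near log2 4 in Caco-2, where a fall could hardly be measured. UBE2L6, the conjugating enzyme for ISG15, fell by 2.17 in HUG1N with a Caco-2 change of 0.18. CDK16, a cyclin-dependent kinase, fell by 1.88 with a Caco-2 change of -0.04, though another of its probe sets showed changes of 0.15 in HUG1N and 0.40 in Caco-2.

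Lists of genes that act together were then described by their counts and medians, beside the same over all genes measured in both lines, where 44.3% had a called interaction and the median changes were -0.00 in Caco-2 and 0.01 in HUG1N. No list was tested against other genes. Several lists had medians of opposite sign in the 2 lines, as had the changes of the ACTB and GAPDH gaps given above. The part of RNA quality in these lists was not tested.

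The transcription factor ATF4 switches on genes of amino acid synthesis and import when amino acids run short. The list of ATF4 targets, amino acid genes and tRNA synthetases, which also held ATF3, was split to one side. Of 44 measured genes 34 had a called interaction (77.3%), all 34 lower in HUG1N. In Caco-2 17 rose and 4 fell, and in HUG1N 4 rose and 33 fell. The medians were 0.24 and -0.64. Of the 44, 13 rose in Caco-2 and fell in HUG1N, 3 rose in both and 4 fell in both. ASNS, the asparagine synthetase, read 9.75 and 9.62 in Caco-2 control and 10.59 and 10.66 in Caco-2 shRNA, and 12.12 and 12.04 in HUG1N control and 10.72 and 10.69 in HUG1N shRNA, with a rise of 0.94 and a fall of 1.38, an interaction of -2.31 (SE 0.11, limma adjusted p = 5.66e-05). PHGDH and ATF3, given above, had the next smallest p-values. Chosen after their values were seen, ATF4 itself rose by 0.49 in Caco-2 and fell by 0.44 in HUG1N, and DDIT3, its partner in prolonged stress, rose by 0.67 and fell by 0.93. The split of 34 lower and 0 higher was the same with quantile normalization and with median centring.

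AP-1 factors, other immediate early genes and feedback regulators of MAP kinase signalling gave a like picture. Of 39 measured genes 30 had a called interaction, 27 lower in HUG1N and 3 higher. In Caco-2 18 rose and 4 fell, and in HUG1N 5 rose and 18 fell, with medians of 0.32 and -0.37. DUSP5, a nuclear phosphatase of ERK, read 6.72 and 6.78 in Caco-2 control and 9.63 and 9.67 in Caco-2 shRNA, and 12.53 and 12.45 in HUG1N control and 11.86 and 11.86 in HUG1N shRNA. It rose by 2.89 (SE 0.07, limma adjusted p = 2.81e-06) in Caco-2 and fell by 0.63 (SE 0.07, limma adjusted p = 0.000702) in HUG1N. ZFP36, which destabilises messages with AU-rich elements, rose by 1.37 in Caco-2 and changed by -0.14 in HUG1N. The 3 genes that went the other way were CCN2, KLF2 and NR4A2, named after their values were seen. CCN2, a matricellular growth factor, rose by 1.04 in Caco-2 and from 2.08 and 2.52, below log2 4, to 6.03 and 5.31 in HUG1N, at least 3.18-fold. KLF2, a Krüppel-like transcription factor, was at least 2.7-fold lower in Caco-2 shRNA than in control, with both shRNA arrays below log2 4, and fell by 0.37 on the log2 scale in HUG1N. NR4A2, an orphan nuclear receptor, rose by 1.26 in HUG1N with a Caco-2 change of 0.32.

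Among ligands and receptors of related pathways, EGFR rose in Caco-2 and fell in HUG1N. The receptor EGFR read 8.76 and 8.71 in Caco-2 control and 10.06 and 10.23 in Caco-2 shRNA, and 9.70 and 9.62 in HUG1N control and 9.15 and 9.20 in HUG1N shRNA. The receptor tyrosine kinase AXL went from 5.20 and 5.21 to 3.14 and 2.61, below log2 4, in HUG1N and changed by 0.26 in Caco-2, and MET, the receptor of hepatocyte growth factor, rose by 0.91 in HUG1N with a Caco-2 change of 0.21. Of 10 genes in the list of EGF ligands and ERBB receptors, which also held AXL and MET, 6 had a called interaction. Of these, 2 were higher and 4 lower in HUG1N. In the BMP and TGF-beta list 17 of 27 were called, 6 higher and 11 lower, with 6 genes that rose in both lines. GDF15, a secreted stress cytokine of the TGF-beta family, read 11.03 and 10.98 in Caco-2 control and 13.53 and 13.59 in Caco-2 shRNA, and 15.002 and 14.97 in HUG1N control and 14.37 and 14.45 in HUG1N shRNA. BAMBI, a decoy receptor of BMP and TGF-beta, rose by 3.51 (SE 0.12, limma adjusted p = 1.15e-05) in Caco-2 and fell by 0.60 (SE 0.12, limma adjusted p = 0.00817) in HUG1N. The BMP ligands BMP4 and BMP7, named after their values were seen, rose in both lines, by 1.93 and 1.74 in Caco-2 and 0.997 and 1.06 in HUG1N. In the list of Wnt targets and stem cell genes 9 of 13 were called, 8 higher in HUG1N and 1 lower, with medians of -0.37 in Caco-2 and 0.17 in HUG1N. FZD5, a Wnt receptor, rose by 1.06 in HUG1N and changed by 0.12 in Caco-2. PROM1, a surface marker of intestinal stem cells, fell by 0.79 in Caco-2 and rose by 0.31 in HUG1N.

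For interferon response and MHC class I genes the change with shRNA, not the level, was mostly lower in HUG1N than in Caco-2. Of 40 measured genes 28 had a called interaction, 25 lower and 3 higher. In Caco-2 17 rose and 5 fell, and in HUG1N 5 rose and 21 fell, with medians of 0.13 and -0.49. IFIT1, an antiviral protein that binds foreign RNA, rose in both lines by different amounts. It went from 2.94 and 3.20, below log2 4, to 8.74 and 8.53 in Caco-2, at least 24.8-fold, and from 9.35 and 9.14 to 10.41 and 10.48 in HUG1N. IRF9 rose in Caco-2 and fell in HUG1N, and UBE2L6 fell in HUG1N alone, as given above. In the NF-kB, interleukin and chemokine list 20 of 27 were called, 6 higher and 14 lower. CXCL8, the neutrophil chemokine interleukin 8, fell in both lines, from 7.67 and 7.47 to 3.55 and 3.68, below log2 4, in Caco-2 and from 11.86 and 11.87 to 11.03 and 10.91 in HUG1N. PTGS2 rose in Caco-2 alone. NFKBIE, an inhibitor of NF-kB, rose by 0.53 in Caco-2 and fell by 1.17 in HUG1N.

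Genes of glycolysis and the hypoxia response were called in 27 of 40, 25 lower in HUG1N and 2 higher. In HUG1N 28 fell and 1 rose, and in Caco-2 10 rose and 6 fell. The medians were 0.09 in Caco-2 and -0.67 in HUG1N. HK1, a hexokinase, read 5.42 and 5.20 in Caco-2 control and 9.56 and 9.50 in Caco-2 shRNA, and 11.47 and 11.20 in HUG1N control and 10.54 and 10.47 in HUG1N shRNA. It rose by 4.22 (SE 0.12, limma adjusted p = 4.98e-06) in Caco-2 and fell by 0.83 (SE 0.12, limma adjusted p = 0.00214) in HUG1N. EPAS1, the hypoxia-inducible factor 2 alpha, rose by 1.18 in Caco-2 and changed by -0.12 in HUG1N, and GYS1, the muscle-type glycogen synthase, rose by 1.26 and fell by 0.34. Subunits of mitochondrial oxidative phosphorylation had the reverse split. Of 63 genes 26 were called (41.3%), 23 higher in HUG1N and 3 lower. In Caco-2 33 fell and 1 rose, and in HUG1N 10 rose and 10 fell, with medians of -0.27 and -0.07. SDHC, a subunit of succinate dehydrogenase, fell by 0.23 in Caco-2 and rose by 0.48 in HUG1N. NDUFA6 of complex I and ATP5MC1 of the ATP synthase fell by 0.45 and 0.99 in Caco-2, and changed by 0.16 and -0.15 in HUG1N.

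Genes of DNA replication and of mitosis were described as separate lists. Of 60 measured genes of DNA replication and the G1/S transition 31 had a called interaction (51.7%), 26 higher in HUG1N and 5 lower. In Caco-2 26 fell and 5 rose, and in HUG1N 14 rose and 8 fell, with medians of -0.31 and 0.13. The 8 genes that fell in Caco-2 and rose in HUG1N included CHAF1A, a chromatin assembly factor, and GINS2, a subunit of the replicative helicase. CHAF1A read 9.05 and 9.11 in Caco-2 control and 8.34 and 8.54 in Caco-2 shRNA, and 8.20 and 8.20 in HUG1N control and 8.67 and 8.62 in HUG1N shRNA, and GINS2 fell by 0.58 and rose by 0.55. CDT1, the licensing factor of replication origins, went the other way, with a fall of 1.12 in HUG1N and a change of 0.17 in Caco-2. Of 64 genes of mitosis and G2/M, 17 were called (26.6%), 9 higher and 8 lower. In Caco-2 24 fell and none rose, and in HUG1N 28 fell and 7 rose, with 14 that fell in both lines and medians of -0.25 and -0.28. AURKB, a kinase of chromosome segregation, fell by 0.46 in Caco-2 and 1.48 in HUG1N, and BUB1B, a spindle checkpoint kinase, by 0.31 and 0.99. CENPM, a centromere protein, was an exception, with a fall of 0.28 and a rise of 0.81. Among 32 cell cycle inhibitors, p53 targets and BCL2 family genes 22 were called, 7 higher and 15 lower. CDKN1A, the inhibitor p21, read 6.69 and 6.40 in Caco-2 control and 6.40 and 6.40 in Caco-2 shRNA, and 11.51 and 11.28 in HUG1N control and 9.54 and 9.65 in HUG1N shRNA. It fell by 1.80 in HUG1N, and in Caco-2 3 of the 4 arrays held the same value, so that a fall could hardly be measured there. GADD45A rose by 0.28 and fell by 1.02, and BAK1, an apoptosis effector, fell by 1.66 in HUG1N with a Caco-2 change of -0.23.

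Keratins and junction genes of epithelium gave the same median in both lines, 0.38. Of 25 genes 9 rose in both lines, 12 rose in Caco-2 and 14 in HUG1N, and 13 had a called interaction, 5 higher in HUG1N and 8 lower. The keratins KRT8, KRT18, KRT19 and KRT23, named after their values were seen, rose in both. KRT19 rose by 1.56 in Caco-2 and 1.46 in HUG1N. KRT8 rose by 1.58 and 0.47. JUP, the junction protein plakoglobin, fell by 0.53 and 1.38. CDH17, the liver-intestine cadherin, fell by 0.74 in Caco-2 with a HUG1N change of 0.16, and PKP2, a desmosomal plakophilin, rose by 0.85 in HUG1N with a Caco-2 change of -0.10. With the mean of its probe sets the interaction of PKP2 went from 0.95 to 0.18 and was not called (limma adjusted p = 0.576). In the list of squamous, annexin and S100 genes 16 of 19 were called, 13 lower in HUG1N and 3 higher, with medians of 0.73 and 0.29. S100P, a small calcium-binding protein, read 10.25 and 10.21 in Caco-2 control and 12.90 and 12.86 in Caco-2 shRNA, and 15.24 and 15.18 in HUG1N control and 15.40 and 15.30 in HUG1N shRNA. PPL, the cornified envelope protein periplakin, rose by 2.09 and 0.38. Matrix, integrin and protease genes were called in 17 of 26, 15 lower and 2 higher, and 18 rose in Caco-2 against 7 in HUG1N. ITGA2, the integrin alpha 2 chain, rose by 1.42 in Caco-2 and changed by -0.11 in HUG1N.

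Lineage genes of the gut differed by gene. Of 18 genes of the gastric list with a probe set, 14 were not measured in both lines and are left out of its counts. Of the 4 measured genes 3 had a called interaction, all higher in HUG1N, and 3 fell in Caco-2. Of the gastric markers below log2 4 in Caco-2, CLDN18, ANXA10 and PGC were lower in HUG1N shRNA than in HUG1N control. MUC5AC was higher there, and GKN1 stayed at the lowest level. TFF1, a trefoil peptide of the stomach surface, read 11.24 and 11.25 in Caco-2 control and 7.98 and 8.12 in Caco-2 shRNA, and 14.19 and 14.25 in HUG1N control and 13.48 and 13.78 in HUG1N shRNA, a fall of 3.20 in Caco-2 and 0.59 in HUG1N. TFF2, the trefoil peptide of mucous neck cells, fell by 4.22 (SE 0.20, limma adjusted p = 3.77e-05) in Caco-2 and changed by -0.29 in HUG1N, an interaction of 3.93 (SE 0.28, limma adjusted p = 0.000251). LYZ, lysozyme, fell by 1.96 and rose by 0.57. In the trefoil, mucin and goblet list 10 of 14 were called, 6 higher and 4 lower. GCNT3, an enzyme of mucin glycan branching, rose by 0.80 in Caco-2 and fell by 0.90 in HUG1N, the reverse of TFF3. The list of brush border and digestion genes, which also held CEACAM5 and CEACAM6, was called in 10 of 13, 5 higher and 5 lower. Of 17 gut transcription factors 10 were called, 4 higher and 6 lower. ELF3, an epithelial ETS factor, read 9.67 and 9.63 in Caco-2 control and 11.05 and 11.04 in Caco-2 shRNA, and 12.82 and 12.77 in HUG1N control and 11.73 and 11.99 in HUG1N shRNA, though its other probe set gave a change of 0.40 in HUG1N, so that the direction there is uncertain. CEBPB rose by 0.45 and fell by 0.64, and SOX4, a factor of progenitor cells, did the reverse with -0.57 and 0.59.

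Metabolic lists showed both directions. Xenobiotic and steroid metabolism was called in 25 of 30 genes (83.3%), 14 higher in HUG1N and 11 lower. CYP1B1, a cytochrome induced through the aryl hydrocarbon receptor, went from 4.25 and 3.76 to 7.67 and 7.99 in Caco-2 and from 11.96 and 12.09 to 11.45 and 11.26 in HUG1N, and all 3 of its probe sets gave the same signs. AKR1C2, an aldo-keto reductase with near-identical relatives, rose by 1.51 and fell by 0.47. Metallothionein and zinc transport genes were called in 9 of 16, 7 lower in HUG1N, and MT1G changed by 0.26 in Caco-2 and -2.51 in HUG1N. In Caco-2 a control and an shRNA array of MT1G held the same value, 4.86, so that a fall could hardly be measured there. SLC30A9, of a zinc transporter family, rose by 1.14 in HUG1N. In the iron and haem list 14 of 18 were called, 6 higher and 8 lower. HMOX1, the inducible haem oxygenase, went from 7.17 and 7.08 to 7.58 and 7.75 in Caco-2 and from 5.32 and 5.56 to 3.02 and 3.07 in HUG1N, where the shRNA arrays fell below log2 4. BLVRA, the next enzyme of haem breakdown, rose by 0.91 and fell by 0.52, and STEAP3, a ferrireductase, rose by 1.59 in HUG1N with a Caco-2 change of 0.18. Cholesterol synthesis was called in 14 of 27, 9 higher and 5 lower. SC5D, a sterol desaturase, rose by 1.54 in HUG1N with a Caco-2 change of 0.16, ACAT2, a thiolase, rose by 0.45 and 1.25, and NPC1, a lysosomal cholesterol exporter, rose by 0.55 and fell by 0.30.

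Genes of the endoplasmic reticulum were called in 19 of 37, 13 higher in HUG1N and 6 lower, with medians of 0.03 and 0.33. CRELD2, a secreted factor induced when proteins misfold, read 9.88 and 9.85 in Caco-2 control and 8.97 and 9.18 in Caco-2 shRNA, and 8.84 and 8.89 in HUG1N control and 10.34 and 10.25 in HUG1N shRNA, a fall of 0.79 and a rise of 1.43. EDEM1, a lectin of glycoprotein degradation, fell by 0.62 and 1.83, and its relative EDEM2 rose by 0.27 and fell by 0.80. Lipid absorption genes were called in 8 of 15, 4 in each direction. LIPA, the lysosomal acid lipase, fell by 0.44 and rose by 0.79, DGAT1, the enzyme that makes triglyceride, fell by 1.31 and 0.40, and PLIN3, a lipid droplet coat protein, fell by 0.74 in HUG1N with a Caco-2 change of 0.07. Of 7 liver-type plasma protein genes 4 were called, 2 in each direction. F5, coagulation factor V, was below log2 4 in both control groups and reached 6.57 and 6.32 in Caco-2 shRNA and 8.14 and 8.29 in HUG1N shRNA. RBP4, the retinol carrier, fell by 0.76 from 14.03 and 14.11 in Caco-2, and from 6.56 and 6.91 to 3.70 and 4.04 in HUG1N, and CFB, complement factor B, fell by 0.76 and rose by 1.35. Cilium genes were called in 8 of 19, 7 higher in HUG1N and 1 lower. IFT52 and BBS1, parts of ciliary transport, fell by 0.24 and 0.45 in Caco-2 and rose by 0.78 and 0.55 in HUG1N, and IFT81 rose by 1.66 in HUG1N.

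Genes with general roles in the cell stood below the share over all genes. Of 50 ribosomal protein genes 6 were called (12%), all lower in HUG1N, with medians of 0.02 and -0.09. RPL29, RPL35 and RPL9 fell by 0.44, 0.39 and 0.50 in HUG1N and changed by 0.05, 0.01 and -0.01 in Caco-2. Of 13 genes often used as controls 4 were called, 1 higher and 3 lower. B2M, the light chain of MHC class I, rose by 0.55 in Caco-2 and changed by -0.14 in HUG1N. POLR2A, the large subunit of RNA polymerase II, fell by 0.69 in HUG1N, and GUSB, a lysosomal enzyme, fell by 0.68 in Caco-2. The interactions of RPL35 and RPL9 were not called without Caco-2 control replicate 1 (limma adjusted p of up to 0.0522 and 0.0529 over all alternatives), nor that of GUSB without Caco-2 control replicate 2 (0.0507).

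**Figure D4:**
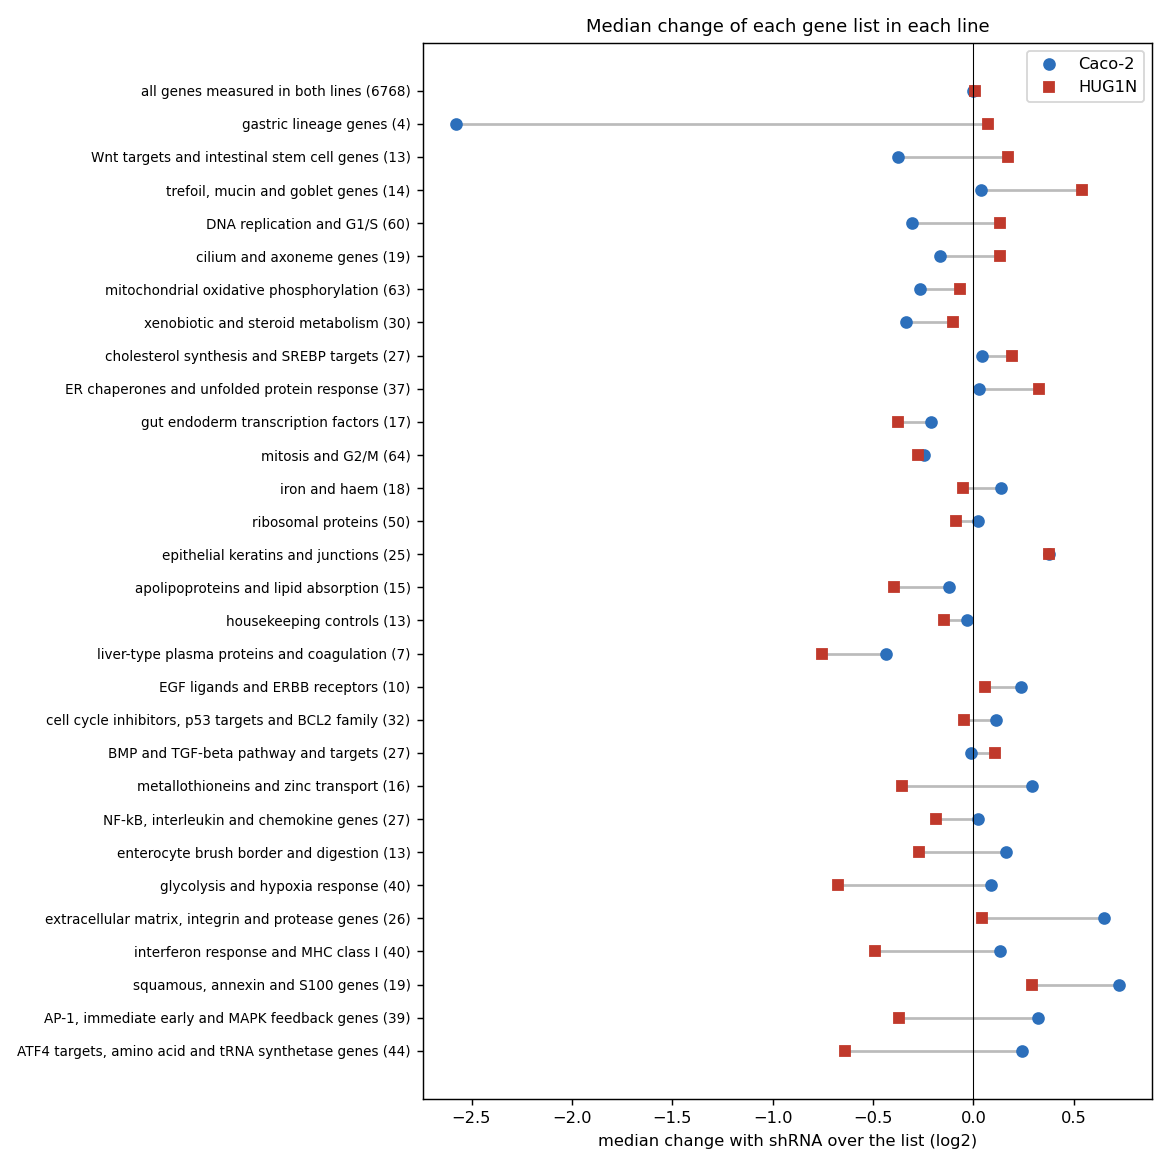
Median log2 change with GATA6 shRNA over the measured genes of each list, circles for Caco-2 and squares for HUG1N, joined by a line, with the number of genes in brackets. Lists are ordered by the median interaction, and the ATF4 list (0.24 against -0.64) stands at the bottom.

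**Figure D5:**
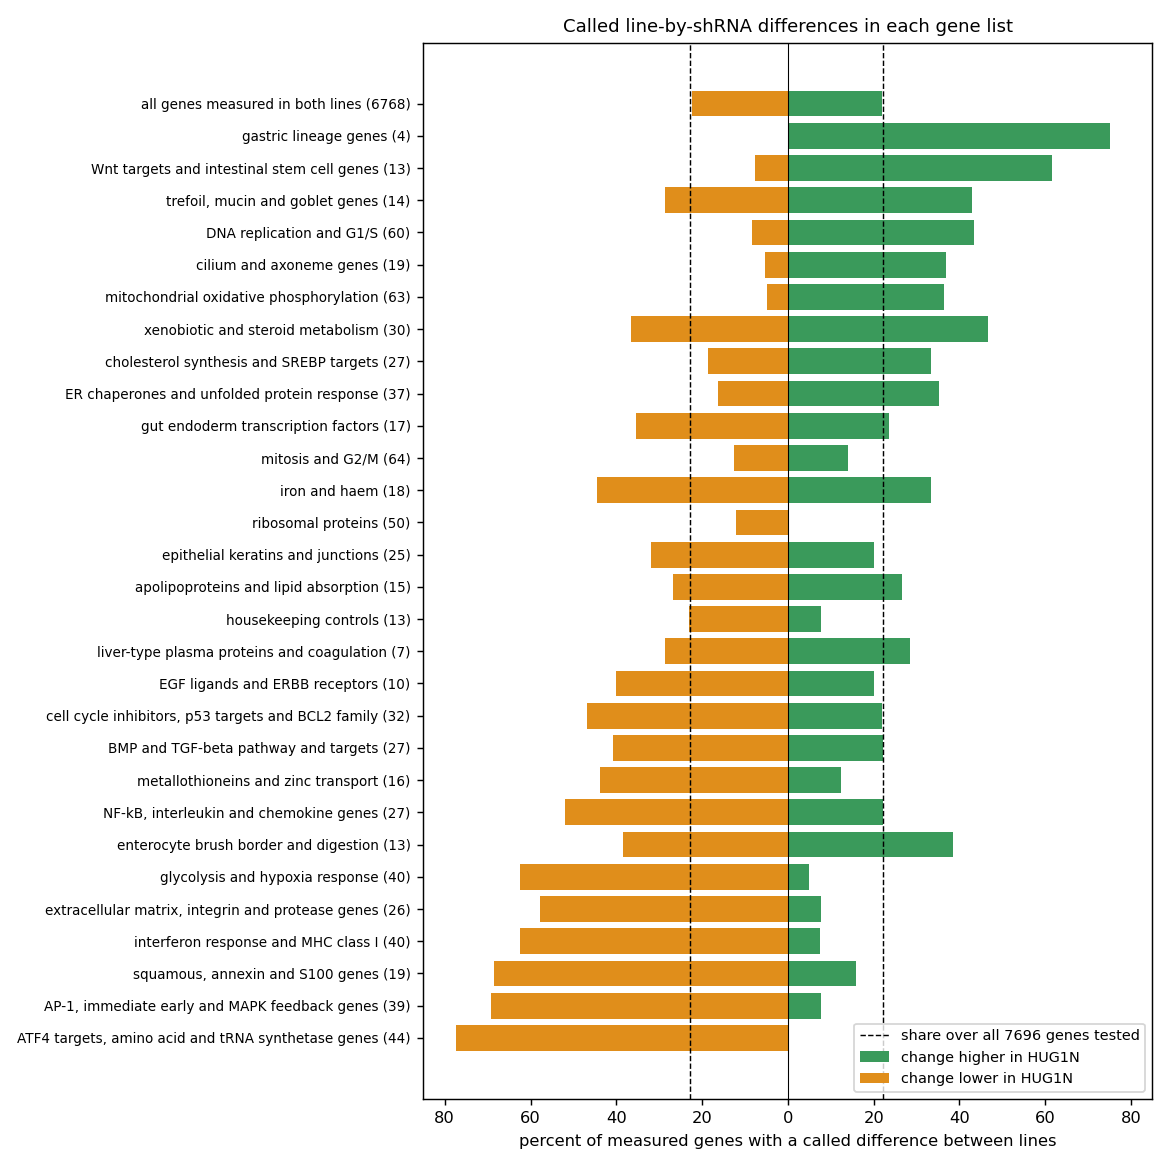
Percent of the measured genes of each list with a called interaction, to the right where the change was higher in HUG1N and to the left where it was lower, in the same order. Dashed lines mark 22.2% and 22.7%, the shares over all 7696 genes tested.

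In the ATF4, AP-1, glycolysis and interferon lists, called interactions were almost all lower in HUG1N, as 34, 27, 25 and 25 genes against 0, 3, 2 and 3. DNA replication, oxidative phosphorylation and Wnt or stem cell genes were split to the other side, as 26, 23 and 8 genes higher in HUG1N against 5, 3 and 1 lower. The larger side of these 7 splits stayed the larger with quantile normalization and with median centring of the arrays. These settings moved the median interaction over all genes measured in both lines only from 0.002 to 0.03 and 0.04. Splits this wide could hardly turn over under shifts of that size.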

How the data were processed

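Gene expression was measured on 8 Affymetrix 3′ expression arrays, 2 in each of 4 groups. Each probe set has 1 deposited log2 value an array. GCRMA was used, per the submitters' processing notes. It corrects background by base content, normalizes and summarises probes. For GCRMA, no version was given in the sources used here.

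Of 22277 probe sets, 19070 had 1 gene symbol, 1043 several and 2164 none here. Symbols came from the platform annotation, updated through the Entrez identifier for 19058. Genes over log2 4 in at least 2 arrays were tested in R 4.3.3 by limma 3.58.1, with 4 group means, moderated variances and Benjamini-Hochberg adjustment over 7696 genes. All groups shared 1 spread per gene, with 4 residual and 2.17 prior degrees of freedom. Arrays at the lowest level hardly vary, so that SE and p can be too small for genes with a group there. A fold against a group with both arrays at or under log2 4 is a bound, taken against 4. The number of arrays limits the precision.

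Named genes were the 8 per class above log2 4 in all arrays with the largest smaller change, 3 per class with a lower array, 4 per other pattern and 3 per list with the smallest interaction p. A gene that this rule selects is not reported here. The members and lists were chosen with earlier results of these data known. The scripts were tested on simulated data. Promoters are from RefSeq (GRCh38.p14), matched by symbol for 5701 of 6768 genes. Figures were drawn with matplotlib 3.10.9.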

Additional observations from a re-analysis of the deposited data

Results flagged for a closer look

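The 2 lines' responses to the same comparison differed, by limma's test of the interaction, in 285 genes that rose in Caco-2 and fell in HUG1N and in 261 that did the reverse. For the named genes of the first class the interaction on the log2 scale was -3.90 for BHLHE40, -3.24 for ATF3, -3.38 for GSTM3, -3.31 for MT1X, -4.14 for SLC15A1, -2.62 for IER3, -2.47 for SLC7A7, -2.65 for TGM2, -2.86 for RAB3B, -2.35 for IRF9 and -5.80 for GREB1L. For those of the second it was 5.41 for TNFRSF11B, 2.98 for SLC12A2, 2.76 for TFF3, 2.77 for CPAP, 3.38 for SIKE1, 1.98 for NAT1, 2.29 for DPP4, 2.04 for ZNF124, 5.13 for ANXA13, 3.40 for TCF4 and 3.49 for MATN2. GREB1L, ANXA13 and MATN2 had a control group below log2 4, and with values under log2 4 set to 4 their interactions were -4.97, 4.30 and 2.68. In the groups of 2 arrays no test for an outlying array was possible. Other called differences of named genes stand in the text above.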

How the results depend on the processing

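The counts of called genes moved by over 1.5 times under the stricter call rules, by their construction. With a change of at least 2-fold required, 1034 interactions were called (454 higher in HUG1N, 580 lower), with 523 genes called in Caco-2 and 699 in HUG1N. In that setting 47 genes rose in both lines, 71 fell in both, 21 rose in Caco-2 and fell in HUG1N, and 8 did the reverse. At an adjusted p under 0.01 the same counts were 1719 (802 and 917), 1434 and 2207, then 208, 253, 109 and 73. Leaving out 1 array at a time gave 2233 to 2713 interactions, 1611 to 2667 genes called in Caco-2 and 2735 to 3319 in HUG1N. The classes then ranged from 306 to 403 genes that rose in both lines, 317 to 506 that fell in both, 179 to 240 that rose in Caco-2 and fell in HUG1N, and 120 to 236 that did the reverse. The replicate numbers were not shown to pair the samples, since same-numbered arrays had deviations correlated at 0.13 in Caco-2 and -0.08 in HUG1N. With a replicate block the interaction was called in 2785 genes, 2722 of them among the 2995, and with a replicate block within line in 2540, 2447 of them shared, where the class that fell in Caco-2 and rose in HUG1N held 172. The split of calls into higher and lower in HUG1N was 1594 and 1437 with quantile normalization and 1615 and 1418 with median centring. Interactions near 0 changed sign for shared genes. With the mean of a gene's probe sets they were -0.044 for SEMA3C and -0.052 for PRSS2. With 1 array left out they ranged from -0.20 to 0.45 for CCDC68, -0.00289 to 0.29 for DENND1A, -0.27 to 0.65 for FGFBP1 and -0.023 to 0.18 for SLC35G2. The cause of these changes was not tested. Values at the lowest level limit what can be said of genes that are low in 1 group, and 2 arrays a group limit the precision.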
